A study of Homo sapiens with 15 samples.

Results

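The comparison described here set BEAS-2B cells kept for 24 h with 30 µg/cm2 of PM2.5, the higher of the study's doses, against vehicle-treated cells of the same 3 experiments. It holds 6 of the 15 RNA sequencing libraries of the series, 3 treated and 3 control, paired by the experiment number in the sample titles, and 17599 of 58219 annotated genes passed a filter on low counts and were tested. BEAS-2B is an immortalized line of normal human bronchial epithelium, so 1 genotype stands for the tissue, and it was grown submerged in serum-free bronchial growth medium on collagen-coated plastic, with no other cell type and no air interface. The particles were collected on filters in Beijing in winter and extracted by sonication in water. The other libraries of the series (1 µg/cm2 for 24 h, and daily dosing with its own control) entered the low-count filter, the scaling and the estimate of the spread. Those at 1 µg/cm2 for 24 h also entered the terms for experiment. The low dose is used once for comparison. Polyadenylated RNA was sequenced as single-end reads of 50 bases.

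Fine particles of this kind carry polycyclic aromatic hydrocarbons, quinones and transition metals. In airway epithelium, the hydrocarbons are ligands of the aryl hydrocarbon receptor (AhR), which switches on cytochrome P450 genes. Electrophiles and metals release the transcription factor NRF2 from its inhibitor KEAP1, and zinc and other metals act on metallothionein genes through MTF1. Shortage of amino acids or of heme, and oxidized proteins, activate kinases that converge on translation of the transcription factor ATF4. Epithelial injury signals through growth factor receptors and the MAP kinases to the immediate early genes and to cytokines.

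Between 21460981 and 34724765 reads were counted on genes in the 6 libraries, and a count of 3, taken as the floor, equals 0.0903 to 0.144 CPM. CPM is counts per 1000000 counted reads after TMM scaling, and intervals and floors of this kind cover counting error only. Epithelial markers were present: 15 of 16 bronchial epithelial markers had at least 1 CPM in all 6 libraries, whereas *PTPRC* and *CD3E* of immune cells and *SCGB1A1* of club cells had no read. Other lists were not empty. *CD14*, on the immune list, held 11.3, 10.9 and 12.9 CPM in the controls and 2.3, 17.9 and 2.97 CPM after PM2.5. Of 10 fibroblast markers, 7 had at least 1 CPM in all 6 libraries. Experiments 1 and 3 were close to each other and experiment 2 stood apart. Between libraries of one group, 30 to 78 genes differed more than 2-fold between experiments 1 and 3, and 1075 to 2009 between experiment 2 and the others. No pair of libraries was alike within sampling noise. For this reason the main model had a mean for each condition and a term for the experiment (a replicate block), and results that depend on the term are marked. p-values here rest on the spread left after condition and experiment are fitted, pooled over all 15 libraries. They leave out the shift between experiments that the conditions of a protocol share.

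With 30 µg/cm2 of PM2.5, 2681 genes were called (edgeR quasi-likelihood F test, p adjusted after Benjamini and Hochberg under 0.05, log2 fold-change at or beyond 0.6 in either direction), which is 15.2% of those tested. Of these, 1296 were higher (7.36% of tested genes) and 1385 lower (7.87%). By mean level over both groups, the called share was 10.7% under 1 CPM, 26.4% at 1 to 10 CPM, 13% at 10 to 100 CPM and 11.8% above. The list counts below are to be read against 15.2% and against these shares. Without the term for experiment, 1420 genes passed (8.07%), and 1411 of them were among the 2681. A dagger (†) at a gene's first mention marks one that passed with the term and not without it. The 3 treated libraries did not overlap the 3 controls for 4004 tested genes (22.8%) and for 1829 of the called genes. Changes of more than 2-fold were found in 686 genes called higher and 676 called lower, and changes of more than 8-fold in 45 and 47. Genes called higher together took 38840 CPM in the controls and 92170 CPM after PM2.5, and genes called lower went from 102400 to 54720 CPM, while the median log2 fold-change of all tested genes was 0.022. Among 9 repeats that left out 1 of the 6 libraries or 1 experiment, 1358 of the 2681 genes passed in every one. Of all tested genes, 32.2% share exon sequence with another tested gene, and since the strand used in counting is not given in the sources used here, their reads cannot be told apart from the neighbour's with certainty. Such genes carry a double dagger (‡) at first mention.

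The largest log2 rises, among called genes that changed the same way in all 3 experiments and reached a mean of 1 CPM in the higher group, were in *RPLP0P2*, *DUSP2*, *HSPA6*, *SPOCD1*, *PAPPA2*, *NMRAL2P*, *EGR1*, *SERPINB2*, *RAB39B* and *IL24*. In all 10 the treated level was lowest in experiment 2. *RAB39B*, a small GTPase of vesicle traffic, held 0.0602, 0.424 and 0.142 CPM in the controls and 6.74, 2.84 and 6.51 CPM after PM2.5 (log2 fold-change 4.79, SE 0.52, adjusted p = 3.16e-05 by the edgeR test). *SERPINB2*, which encodes plasminogen activator inhibitor 2, held 0.331, 0.330 and 0.602 CPM in the controls and 15.9, 4.44 and 16.8 CPM after PM2.5 (log2 fold-change 4.87, SE 0.35, adjusted p = 1.42e-06). Neither gene's groups overlapped. *RPLP0P2* is a ribosomal protein pseudogene with at most 1 count in each control, and it was at least 77.4-fold higher, although reads of 50 bases may come from its parent gene. The largest falls were in *FGB*, *FGG*, *ABCB5*, *CXCL14*, *KCNJ16*, *CXCR4*, *CA9*‡, *TNNT2*‡, *PLCE1-AS1*‡ and *ANGPT1*. *TNNT2*, a troponin subunit, held 19.9, 68.0 and 21.1 CPM in the controls and 1.12, 5.06 and 0.862 CPM after PM2.5 (log2 fold-change -4.11, SE 0.19, adjusted p = 7.13e-08), and *KCNJ16*, a potassium channel, 0.903, 2.83 and 0.779 CPM in the controls and 0, 0.208 and 0 CPM after PM2.5 (log2 fold-change -4.42, SE 0.65, adjusted p = 0.000293). In both, the control of experiment 2 stood above the other controls and the groups did not overlap.

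The smallest p-values among genes called lower belonged to *CD24*, *PEG10*, *GAS1*, *TNNT2*, *KRT5*, *MARCKS*, *CYP4B1*, *IFI44L*, *NPR3* and *GJA1*. *CD24*, a surface glycoprotein, held 109, 240.1 and 126 CPM in the controls and 18.7, 34.1 and 20.2 CPM after PM2.5 (log2 fold-change -2.67, SE 0.094, adjusted p = 1.6e-08, edgeR). *PEG10* (ENSG00000242265.5, chromosome 7 from 94656325 to 94669695, plus strand), an imprinted gene derived from a retrotransposon, held 1494, 1066 and 1316 CPM in the controls and 155, 145 and 165 CPM after PM2.5 (log2 fold-change -3.04, SE 0.13, adjusted p = 6.9e-08). *GAS1*, a co-receptor for hedgehog ligands that was named for its expression in arrested cells, held 127, 249.7 and 115 CPM in the controls and 9.07, 30.1 and 10.7 CPM after PM2.5 (log2 fold-change -3.39, SE 0.15, adjusted p = 7.13e-08). In each of these 3 genes, every treated library was several-fold below every control library. *CYP4B1*, a cytochrome P450 of lung, fell by 3.64 on the log2 scale and *NPR3*, the natriuretic peptide clearance receptor, fell by 2.57. Among genes called higher, the smallest p-values included those of *NMRAL2P*, *LIF*‡, *SQSTM1*‡, *DUSP2*, *SEL1L3*, *FTL*, *SPOCD1*, *OSGIN1* and *FTH1*‡. *SEL1L3* held 37.3, 35.4 and 35.7 CPM in the controls and 165, 126 and 171 CPM after PM2.5 (log2 fold-change 2.08, SE 0.11, adjusted p = 2.24e-07), with no overlap and little spread between experiments.

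**Figure D1:**
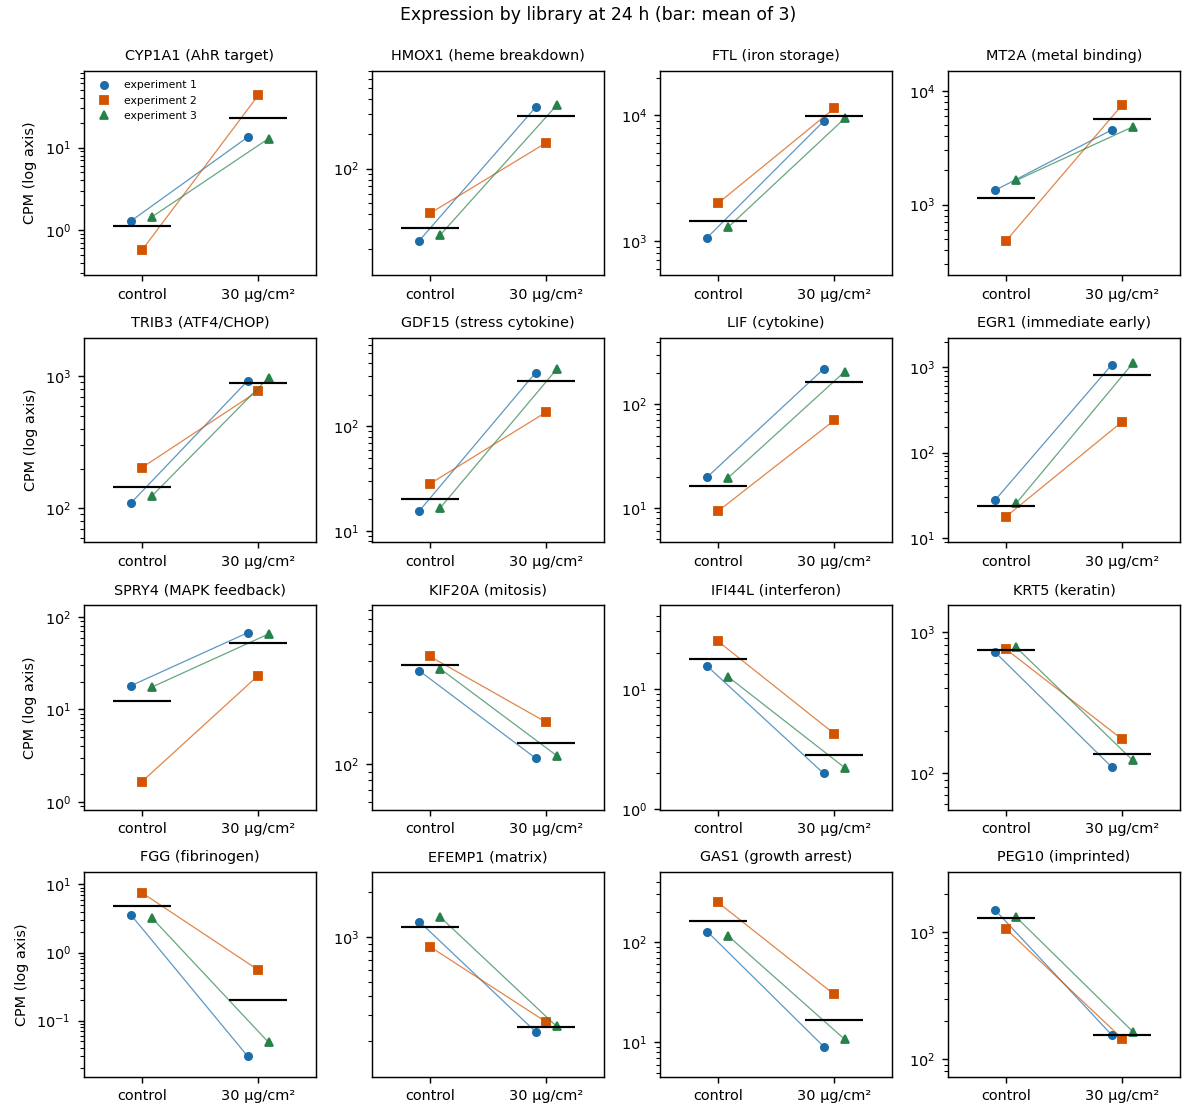
CPM on a log axis for 16 genes, 1 point per library, with experiments 1 to 3 as circles, squares and triangles joined between control and 30 µg/cm2 of PM2.5 and a black bar at the mean of 3. The library without reads of FGG is drawn at 0.03 CPM. In every gene shown, all 3 treated libraries lie on one side of all 3 controls, and experiment 2 often starts or ends apart from experiments 1 and 3, as in SPRY4 and MT2A.

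The AhR list was the one with the largest share of called genes among those with over 10 members tested. Of its 11 tested members, 6 were higher and 3 lower (*AHR*, *LRAT* and *NEDD9*†), with a median log2 fold-change of 1.12, against 15.2% called and a median of 0.022 over all tested genes. *CYP1A1* (ENSG00000140465.13, chromosome 15 from 74719542 to 74725610, minus strand of GRCh38), the P450 that oxidizes polycyclic hydrocarbons, held 1.29, 0.565 and 1.45 CPM in the controls and 13.4, 42.9 and 12.9 CPM after PM2.5 (log2 fold-change 4.21, SE 0.56, adjusted p = 0.000142 by the edgeR test). The treated library of experiment 2 held over 3 times the level of the others. *TIPARP*‡, an ADP-ribosyltransferase that represses the receptor, held 87.6, 34.9 and 82.1 CPM in the controls and 202, 136 and 215 CPM after PM2.5 (log2 fold-change 1.51, SE 0.12, adjusted p = 2.7e-06), and *AHRR*‡, the receptor's repressor, 4.06, 3.53 and 3.26 CPM in the controls and 9.83, 11.9 and 9.43 CPM after PM2.5 (log2 fold-change 1.51, SE 0.18, adjusted p = 5.42e-05). *CYP1B1*‡ rose by 1.92 on the log2 scale, *NQO1* by 1.93 and *SLC7A5* by 1.12. The receptor gene itself fell: *AHR* held 44.5, 51.2 and 50.9 CPM in the controls and 27.9, 29.9 and 34.0 CPM after PM2.5 (log2 fold-change -0.68, SE 0.082, adjusted p = 7.44e-05). *LRAT*, which esterifies retinol, fell by 1.32. *ARNT*, the receptor's partner, did not pass (log2 fold-change -0.19, adjusted p = 0.174 by the same edgeR test), nor did *ALDH3A1* (log2 fold-change 0.09, adjusted p = 0.875). The call of *NEDD9*, an adhesion scaffold, was lost in 3 of 9 leave-outs, at a log2 fold-change of -0.47 to -0.38.

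The AhR binds the letters GCGTG. Among the 250 bases before the start of a gene in RefSeq's promoter table (GRCh38.p14), which held 12101 of the tested genes, GCGTG or its complement stood in 44.2% of all promoters, in 42.2% of those of genes called higher and in 4 of 9 (44.4%) on the AhR list. A match of letters is a description and not a binding site. The match in the *CYP1A1* promoter (minus strand, chr15:74725569-74725598, the motif 52 bases before RefSeq's start, which lies inside the gene span printed above) is shown in capitals because the gene had the largest rise on this list.
CYP1A1: tccagggaaggagGCGTGgccacacgtaca

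The list of NRF2's regulators had 4 of 10 members higher and none lower. *SQSTM1*, encoding the p62 protein that binds KEAP1, held 67.5, 70.4 and 71.8 CPM in the controls and 258, 208 and 273 CPM after PM2.5 (log2 fold-change 1.81, SE 0.096, adjusted p = 2.17e-07 by the edgeR test), *OSGIN1*, an oxidative stress growth inhibitor, 1.66, 0.800 and 1.74 CPM in the controls and 16.9, 10.8 and 16.6 CPM after PM2.5 (log2 fold-change 3.40, SE 0.20, adjusted p = 3.78e-07), and *MAFF* and *MAFG*‡, small MAF partners of NRF2, rose by 2.10 and 1.09 on the log2 scale. Neither *NFE2L2*‡ nor *KEAP1* passed. The values of *NFE2L2*, which encodes NRF2, and of *KEAP1* were -0.016 (adjusted p = 0.91) and 0.19 (adjusted p = 0.168).

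Of 22 tested genes of glutathione synthesis and use, 6 were higher and none lower, with a median of 0.35. *GCLC*, the catalytic subunit of the enzyme that limits glutathione synthesis, held 50.3, 40.9 and 48.9 CPM in the controls and 293, 113 and 299 CPM after PM2.5 (log2 fold-change 2.22, SE 0.17, adjusted p = 2.78e-06 by the edgeR test). *GCLM*, its modifier subunit, held 85.9, 50.1 and 86.0 CPM in the controls and 218, 148 and 236 CPM after PM2.5 (log2 fold-change 1.46, SE 0.12, adjusted p = 4.69e-06). *SLC7A11*‡, the cystine carrier that feeds the pathway, held 27.4, 93.2 and 23.7 CPM in the controls and 466, 186 and 445 CPM after PM2.5 (log2 fold-change 3.23, SE 0.48, adjusted p = 0.000345), and its control of experiment 2 lay above the other controls while its treated library lay below. *ABCC3*, an efflux pump for conjugates, rose by 1.93 and *GSR*, glutathione reductase, by 0.68. None of the glutathione peroxidases and S-transferases on the list passed. *GPX2* had a log2 fold-change of 1.58 (adjusted p = 0.111), *GPX4* -0.17 and *GSTP1* 0.09.

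The thioredoxin and NADPH list had 4 of 15 members higher and none lower (5 and 1 without experiment 2). *TXNRD1*, thioredoxin reductase, held 358, 279 and 361 CPM in the controls and 2063, 956 and 2150 CPM after PM2.5 (log2 fold-change 2.27, SE 0.18, adjusted p = 3.17e-06 by the edgeR test), and *SRXN1*, which repairs oxidized peroxiredoxins, rose by 2.52. *PRDX1*‡ and *PGD*, an enzyme of the pentose phosphate pathway, had log2 fold-changes of -0.026 and 0.11. Among aldo-keto reductases and quinone reductases, 10 of 19 were higher and none lower (7 and none without the term for experiment, 11 and 1 without experiment 2), with a median of 0.60. *NMRAL2P*, a pseudogene, held 0.512, 0.518 and 0.390 CPM in the controls and 21.9, 11.3 and 20.2 CPM after PM2.5 (log2 fold-change 5.24, SE 0.24, adjusted p = 7.13e-08), the largest change of the list. *TRIM16L* rose by 2.43, *AKR1C2* by 1.96, *AKR1C1* by 1.80 and *PIR* by 1.25. *AKR1C1* and *AKR1C2*, and *TRIM16L* and *TRIM16*, are near-identical pairs whose reads the counting may have split.

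The core of the antioxidant element that NRF2 binds, TGACNNNGC on either strand, stood in the 250 bases before the start of 12.2% of all tested promoters and of 12.7% of those of genes called higher. In promoters of genes called lower the share was 12.3%. On the glutathione list it was in 6 of 17 promoters (35.3%) and on the thioredoxin list in 4 of 11 (36.4%). On the heme and iron, NRF2 regulator and aldo-keto lists it was in 2 of 13 (15.4%), 1 of 9 (11.1%) and 1 of 13 (7.69%). It also stood in 4 of 11 (36.4%) on the TNF superfamily list and in 7 of 21 (33.3%) on the lysosome list. The windows below show it in capitals in the genes for thioredoxin reductase (plus strand, chr12:104215669-104215698, 90 bases before the start) and for the glutamate-cysteine ligase modifier (minus strand, chr1:93909446-93909475, 25 bases before the start), in the second as its complement.
TXNRD1: tacacgggctaTGACTTCGCtgttgtcacc
GCLM: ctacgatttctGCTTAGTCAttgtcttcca

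In heme and iron handling, 6 of 15 genes were higher and 1 lower (4 and none without the term, 6 and none without experiment 2). *HMOX1* (ENSG00000100292.16, chromosome 22 from 35380361 to 35394214, plus strand), heme oxygenase, held 23.7, 40.7 and 26.5 CPM in the controls and 341, 167 and 354 CPM after PM2.5 (log2 fold-change 3.26, SE 0.28, adjusted p = 5.53e-06 by the edgeR test), and the ferritin light chain gene *FTL* held 1065, 1990 and 1289 CPM in the controls and 9014, 11390 and 9475 CPM after PM2.5 (log2 fold-change 2.83, SE 0.16, adjusted p = 3.15e-07). *FTH1*, the heavy chain, held 199, 215 and 166 CPM in the controls and 915, 938 and 1258 CPM after PM2.5 (log2 fold-change 2.43, SE 0.14, adjusted p = 4.1e-07). Both ferritin genes have many pseudogenes, so some of their reads may have been lost or gained. *TFRC*†, the transferrin receptor, rose by 1.19 and *ALAS1*, the first enzyme of heme synthesis, by 1.06. Of metallothionein and zinc genes, 8 of 12 were higher and none lower, with a median of 1.01 (6 and none without the term, 9 and 3 without experiment 2). *MT2A* held 1338, 477 and 1632 CPM in the controls and 4535, 7540 and 4828 CPM after PM2.5 (log2 fold-change 2.40, SE 0.35, adjusted p = 0.000266), and the control of experiment 2 was the lowest while its treated library was the highest. *MT1E* rose by 1.59, *MT1X* by 1.10, *MT3* by 1.85 and *MT1M*† by 2.15. *SLC30A1*, the zinc exporter of the plasma membrane, rose by 0.91. Metallothionein genes are near copies of each other, and their single values carry that uncertainty. *MTF1*, the zinc sensor, had a log2 fold-change of 0.55 (adjusted p = 0.00167), under the size threshold.

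Heat shock chaperones did not move as a family: 2 of 16 were higher, 2 lower (25% called, against 15.2% of all tested genes), and the median was 0.064. *HSPA6*, a strictly inducible HSP70, held 0.211, 0.141 and 0.425 CPM in the controls and 16.5, 4.61 and 17.3 CPM after PM2.5 (log2 fold-change 5.65, SE 0.36, adjusted p = 6.67e-07 by the edgeR test), with no overlap. *HSPA1A*, its inducible relative, whose near-identical copy *HSPA1B* had no read, had a log2 fold-change of 0.53 (adjusted p = 0.3), *DNAJB1*‡ 0.14 and *HSP90AA1*‡ -0.24. Without the term the counts were 1 and 1, without the control of experiment 3 also 1 and 1, and without experiment 2 they were 2 higher and 5 lower with a median of -0.25. The list was higher in experiment 2 (median log2 ratio 0.64) and lower in experiments 1 and 3 (-0.24 and -0.25).

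**Figure D2:**
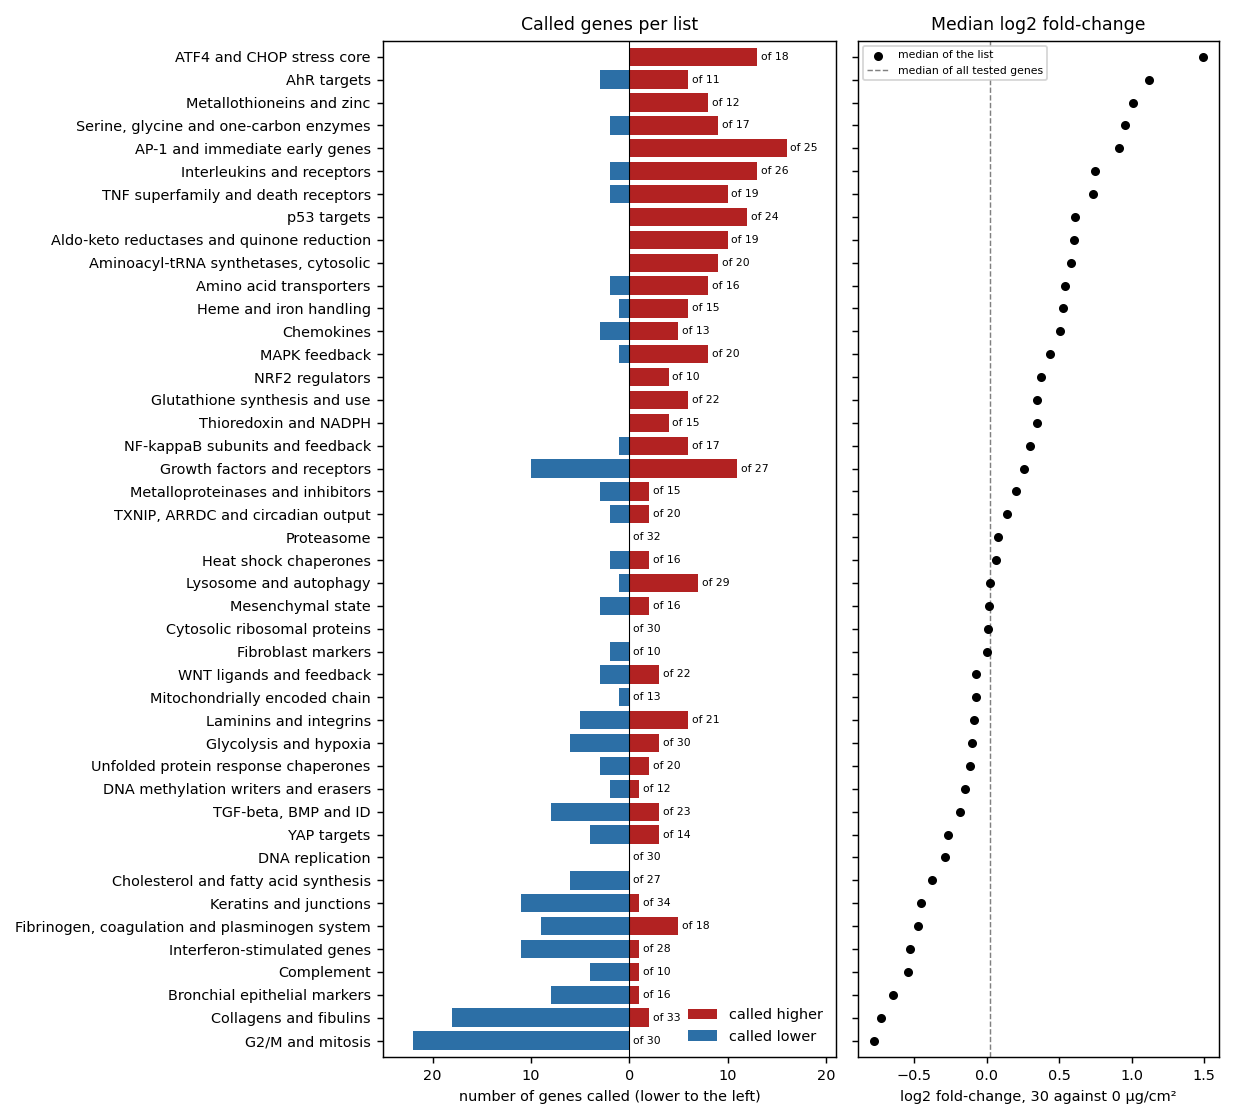
Left, the number of genes called higher (red, to the right) and lower (blue, to the left) in each list, with the number tested. Right, the median log2 fold-change of each list, 30 against 0 µg/cm2, with the median of all 17599 tested genes (0.022) as a dashed line. The ATF4 and CHOP list has the highest median (1.49) and the G2/M and mitosis list the lowest (-0.78).

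The ATF4 and CHOP list had the highest median of all lists, 1.49, with 13 of 18 genes higher and none lower. Without the term for experiment, 7 were higher and none lower. Without experiments 1, 2 and 3 the higher counts were 9, 14 and 9, with medians of 1.06, 2.04 and 1.17. The dependence on the term came with control levels that differed: *CHAC1*†, a glutathione-degrading enzyme, held 5.03, 108 and 6.17 CPM in the controls and 95.7, 104 and 93.6 CPM after PM2.5. Its treated libraries were alike and its control of experiment 2 was at the treated level. Its log2 fold-change was 2.68 (SE 0.62, adjusted p = 0.00625 by the edgeR test), and its call was lost in 2 of 9 leave-outs, at a log2 fold-change of 1.86 to 1.997. *DDIT3*†‡, which encodes CHOP, held 11.8, 48.1 and 12.9 CPM in the controls and 87.1, 77.7 and 91.8 CPM after PM2.5 (log2 fold-change 2.30, SE 0.40, adjusted p = 0.00107), with no overlap. *TRIB3* (ENSG00000101255.10, chromosome 20 from 362835 to 397559, plus strand), a pseudokinase that CHOP induces, held 110.3, 203 and 124 CPM in the controls and 923, 773 and 976 CPM after PM2.5 (log2 fold-change 2.73, SE 0.29, adjusted p = 2.52e-05). *PPP1R15A*, the GADD34 phosphatase subunit that restores translation, held 59.9, 61.9 and 63.4 CPM in the controls and 404, 186 and 419 CPM after PM2.5 (log2 fold-change 2.41, SE 0.24, adjusted p = 1.46e-05), with even controls. *GDF15*, a stress cytokine, held 15.5, 28.2 and 16.6 CPM in the controls and 327, 137 and 352 CPM after PM2.5 (log2 fold-change 3.84, SE 0.40, adjusted p = 2.52e-05), and *ASNS*, asparagine synthetase, rose by 2.47. *DDIT4* and *ATF5*‡ did not pass, at log2 fold-changes of -0.32 and 0.29.

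Among serine, glycine and one-carbon genes, 9 of 17 were higher and 2 lower, with a median of 0.95 (9 and 1 without experiment 1). *PSAT1*, of serine synthesis, held 164, 365 and 186 CPM in the controls and 563, 579 and 577 CPM after PM2.5 (log2 fold-change 1.39, SE 0.19, adjusted p = 0.000152 by the edgeR test), and *ALDH1L2*‡, a mitochondrial folate enzyme, 31.3, 43.4 and 22.6 CPM in the controls and 170.3, 79.4 and 160.1 CPM after PM2.5 (log2 fold-change 2.05, SE 0.26, adjusted p = 0.000116). *PHGDH*†, which starts serine synthesis from a glycolytic intermediate, rose by 1.12, and the mitochondrial enzymes *SHMT2*‡ and *MTHFD2*‡, which turn serine into one-carbon units, by 1.07 and 1.17. The cytosolic counterpart of the former moved the other way: *SHMT1*‡ fell by 0.68. The folate and thymidylate enzymes *MTHFD1*‡ and *TYMS*‡ had log2 fold-changes of -0.39 and -0.37, inside the size threshold. *CTH* and *CBS*, of transsulfuration, rose by 1.64 and 0.95.

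Amino acid transporters had 8 of 16 members higher and 2 lower (5 and 1 without the term). *SLC3A2*, the shared heavy chain of the large neutral and cystine carriers, rose by 1.18, *SLC7A1*, a cationic carrier, by 1.06 and *SLC6A9*†‡, a glycine carrier, by 2.13. *SLC7A5*, the light chain for large neutral amino acids, held 574, 616 and 598 CPM in the controls and 1325, 1190 and 1388 CPM after PM2.5 (log2 fold-change 1.12, SE 0.11, adjusted p = 1.32e-05 by the edgeR test). *SLC38A2* had a log2 fold-change of -0.38. Of 20 cytosolic aminoacyl-tRNA synthetases, which charge tRNAs with amino acids, 9 were higher and none lower, and the same counts came without the term (10 and 1 without experiment 2). *WARS1*‡ held 131, 119 and 136 CPM in the controls and 324, 329 and 329 CPM after PM2.5 (log2 fold-change 1.34, SE 0.082, adjusted p = 4.73e-07), and *GARS1*‡ and *YARS1*‡ rose by 1.14 and 1.07. The change was uneven within the family, as *RARS1* and *VARS1* had log2 fold-changes of -0.064 and -0.036. Chaperones of the endoplasmic reticulum had calls in both directions: 2 of 20 genes of the unfolded protein response were higher and 3 lower. The called share was 25%, against 15.2% of all tested genes. The lower count was 7 without experiment 2 and none without experiment 1 or without experiment 3, while the higher count was 3, 2 and 2. *XBP1*, a transcription factor of that response, held 102, 153 and 115 CPM in the controls and 256, 263 and 283 CPM after PM2.5 (log2 fold-change 1.16, SE 0.14, adjusted p = 6.49e-05) and *ERN1*, its activating kinase IRE1, rose by 1.25. *HSPA5*, which encodes BiP, had a log2 fold-change of -0.22 (adjusted p = 0.401). *CALR*, calreticulin, fell by 0.78, a call lost in 2 of 9 leave-outs, at a log2 fold-change of -0.72 to -0.69.

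The composite element bound by ATF4 with C/EBP partners is TGATGNAA on either strand. It stood in 1.45% of all tested promoters, 2.42% of those of genes called higher and 2.55% of those of genes called lower. On the ATF4 and CHOP list it stood in 4 of 17 (23.5%) and on the synthetase list in 2 of 16 (12.5%). On the serine and glycine list it stood in 1 of 11 (9.09%) and on the amino acid transporter list in 0 of 13. Windows are shown for asparagine synthetase (minus strand, chr7:97872458-97872487, 60 bases before the start) and for *CHAC1* (plus strand, chr15:40953251-40953280, 201 bases before the start, as the complement).
ASNS: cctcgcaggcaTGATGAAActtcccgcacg
CHAC1: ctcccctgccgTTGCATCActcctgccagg

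Of 30 G2/M and mitosis genes, 22 were lower and none higher, with a median of -0.78. Of 30 DNA replication genes none passed in either direction with the size threshold, with a median of -0.29, although 14 were below 0 and 1 above 0 at an adjusted p under 0.05 by the edgeR test. No test compared these lists. *KIF20A*‡ (ENSG00000112984.11, chromosome 5 from 138178719 to 138187715, plus strand), a kinesin of cytokinesis, held 350.4, 426 and 360 CPM in the controls and 108, 175 and 112 CPM after PM2.5 (log2 fold-change -1.54, SE 0.15, adjusted p = 1.62e-05 by the edgeR test). *CCNB1*, cyclin B1, held 538, 763 and 611 CPM in the controls and 229, 497 and 245 CPM after PM2.5 (log2 fold-change -1.04, SE 0.13, adjusted p = 9.01e-05) and *PLK1*, a mitotic kinase, 152, 149 and 164 CPM in the controls and 60.2, 119 and 62.9 CPM after PM2.5 (log2 fold-change -0.99, SE 0.17, adjusted p = 0.000866). In all 3 genes the treated library of experiment 2 stayed closest to the controls. *CENPF*, a kinetochore protein, fell by 1.05, *MKI67*, the Ki-67 antigen, by 0.91 and *TOP2A*, topoisomerase II alpha, by 0.87. *MCM2*‡, *MCM4* and *PCNA*, of the replication fork, had log2 fold-changes of -0.39, -0.51 and -0.32, and *CDC6* and *E2F1* of 0.24 and 0.06. In bulk samples, fewer cells in a stage and less RNA per cell cannot be told apart.

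The cell cycle genes homology region, TTTGAA on either strand, is bound by complexes that time mitotic genes. It stood in 13 of 24 promoters of the G2/M list (54.2%), in 1 of 27 of the replication list (3.7%), in 8.54% of all tested promoters and in 12.1% of those of genes called lower. CCAAT stood in 20 of 24 promoters of the G2/M list (83.3%), in 18 of 27 of the replication list (66.7%) and in 34.4% of all. Windows with the letters in capitals are shown for 4 members that fell, on the plus strand at chr16:23678848-23678877 (23 bases before the start), chr2:26786026-26786055 (12 bases), chr15:59105105-59105134 (23 bases) and chr1:43358904-43358933 (59 bases). *CENPA*‡, the centromeric histone, fell by 0.97, *CCNB2*†, cyclin B2, by 0.80 and *CDC20*, which activates the anaphase-promoting complex, by 0.82. In the first 3, the element lies within 30 bases of the start.
PLK1: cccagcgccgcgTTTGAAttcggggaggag
CENPA: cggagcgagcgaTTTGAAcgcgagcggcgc
CCNB2: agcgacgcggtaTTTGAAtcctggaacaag
CDC20: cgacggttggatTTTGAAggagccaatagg

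Of 24 genes that p53 activates, 12 were higher and none lower, with a median of 0.61 (8 without the term, 7 without experiment 3). *CDKN1A*, the cyclin-dependent kinase inhibitor p21, held 168, 275 and 186 CPM in the controls and 709, 476 and 729.5 CPM after PM2.5 (log2 fold-change 1.65, SE 0.20, adjusted p = 8.49e-05 by the edgeR test). *GADD45A*, a growth arrest gene, held 56.1, 45.7 and 60.2 CPM in the controls and 159.8, 91.1 and 174 CPM after PM2.5 (log2 fold-change 1.36, SE 0.12, adjusted p = 6.86e-06), and *EDA2R*, a death receptor relative, 2.38, 1.65 and 2.37 CPM in the controls and 9.01, 2.46 and 8.71 CPM after PM2.5 (log2 fold-change 1.56, SE 0.23, adjusted p = 0.000291). *TNFRSF10B*‡, the TRAIL receptor DR5, rose by 1.07 and *MDM2*‡, which degrades p53, by 0.82. In these genes the treated library of experiment 2 was below those of experiments 1 and 3. *BAX*, *FAS*‡ and *TIGAR* did not pass, with log2 fold-changes of 0.18, 0.16 and 0.32. *CDKN1A* and *GDF15* also stand on the ATF4 and CHOP list.

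**Figure D3:**
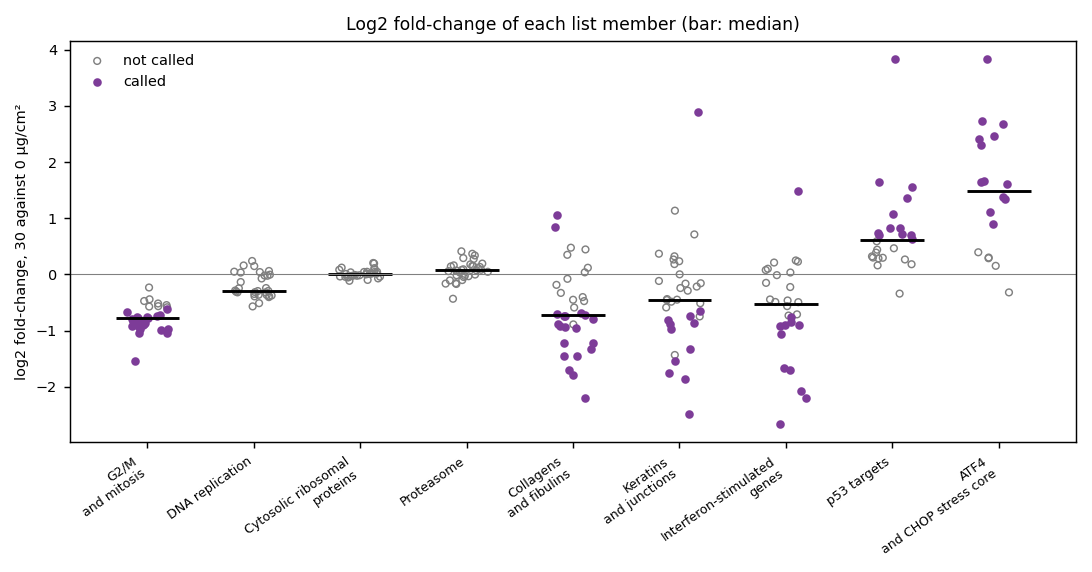
Log2 fold-change, 30 against 0 µg/cm2, of each tested member of 9 lists, with called genes as filled points, others as open circles and the median as a bar. Most G2/M members are filled and below 0, while no replication, ribosomal or proteasome member is filled.

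Of 26 tested interleukins and receptors, 13 were higher and 2 lower, with a median of 0.75 (11 and 1 without the term, 13 and 3 without experiment 2, 12 and 1 without experiment 1 or 3). *LIF* (ENSG00000128342.4, chromosome 22 from 30240447 to 30246851, minus strand), of the IL-6 family, held 19.9, 9.23 and 19.6 CPM in the controls and 221, 70.2 and 208 CPM after PM2.5 (log2 fold-change 3.29, SE 0.15, adjusted p = 7.13e-08 by the edgeR test). *IL24*, of the IL-10 family, held 0.813, 0.753 and 0.744 CPM in the controls and 19.0, 8.67 and 20.0 CPM after PM2.5 (log2 fold-change 4.33, SE 0.28, adjusted p = 7.72e-07), and *IL11* 1.87, 1.74 and 2.06 CPM in the controls and 17.1, 5.03 and 19.6 CPM after PM2.5 (log2 fold-change 2.77, SE 0.29, adjusted p = 2.75e-05). All 3 were lower in the treated library of experiment 2 than in the other treated libraries, and above every control. *IL1A* held 4.94, 1.84 and 5.35 CPM in the controls and 29.3, 13.8 and 33.1 CPM after PM2.5 (log2 fold-change 2.66, SE 0.17, adjusted p = 6.67e-07). *IL1B* rose by 2.505, *IL1RL1*‡, which encodes the IL-33 receptor ST2, by 2.57, and *TSLP*, an epithelial cytokine of allergic inflammation, by 2.02. *IL18*, another IL-1 relative, fell by 1.08, from 134 ± 23.0 to 63.4 ± 10.4 CPM (SD, n = 3). *IL6* did not pass, with a log2 fold-change of 0.45 (adjusted p = 0.309), and *IL33*, *TNF* and *CSF2* did not pass the filter on low counts. *CSF2*, which encodes GM-CSF, had 0 counts in each control and 13, 8 and 8 counts after PM2.5.

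Of 13 chemokine genes, 5 were higher and 3 lower. Among neutrophil attractants, *CXCL8* held 6.86, 1.84 and 7.76 CPM in the controls and 25.1, 22.0 and 25.6 CPM after PM2.5 (log2 fold-change 2.25, SE 0.28, adjusted p = 8.34e-05 by the edgeR test), *CXCL3* rose by 2.03 and *CXCL2* by 1.43. *CCL20*, which attracts dendritic cells, held 0.723, 0.471 and 0.779 CPM in the controls and 4.50, 3.43 and 4.07 CPM after PM2.5 (log2 fold-change 2.58, SE 0.30, adjusted p = 4.99e-05). *CXCL14*, *CXCR4* and *CCL28* fell. *CXCR4*, the receptor of CXCL12, held 2.41, 10.9 and 2.73 CPM in the controls and 0.329, 0.277 and 0.144 CPM after PM2.5 (log2 fold-change -4.20, SE 0.38, adjusted p = 7.87e-06), and *CXCL14* was at least 15.5-fold lower, its treated libraries holding no more than 3 counts each. *CXCL1*, another neutrophil attractant, did not pass, with a log2 fold-change of 0.51 (adjusted p = 0.47). The median of the list was 0.51 with all libraries, -0.22 without the control of experiment 2, -0.093 without its treated library and -0.40 without both, so its sign depends on that experiment. Without experiment 2, 5 were higher and 5 lower.

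Among the TNF superfamily and death receptors, 10 of 19 genes were higher and 2 lower, with a median of 0.73 (7 and 1 without experiment 1). *NGFR*, the low-affinity nerve growth factor receptor, held 4.79, 4.62 and 5.99 CPM in the controls and 31.8, 21.4 and 33.0 CPM after PM2.5 (log2 fold-change 2.48, SE 0.18, adjusted p = 1.44e-06 by the edgeR test). *TNFRSF12A*, the TWEAK receptor Fn14, held 171, 96.8 and 186 CPM in the controls and 412, 372 and 445 CPM after PM2.5 (log2 fold-change 1.47, SE 0.17, adjusted p = 5.62e-05), and *TNFRSF10D*, a decoy receptor for TRAIL, rose by 1.04. The gene of the ligand TRAIL, *TNFSF10*, held 4.55, 12.9 and 5.35 CPM in the controls and 1.22, 3.54 and 1.39 CPM after PM2.5 (log2 fold-change -1.87, SE 0.18, adjusted p = 1.2e-05). Of 17 NF-kappaB genes, 6 were higher and 1 lower (4 and none without the treated library of experiment 3). *RELB*, a subunit of the alternative pathway, held 8.88, 9.46 and 11.9 CPM in the controls and 36.6, 43.3 and 44.01 CPM after PM2.5 (log2 fold-change 2.02, SE 0.17, adjusted p = 5.59e-06), *TNFAIP3*, the inhibitor A20, rose by 1.35 and *ICAM1*, an adhesion target, by 1.25. *NFKBIA*, the classical feedback inhibitor, had a log2 fold-change of 0.25 (adjusted p = 0.0663).

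Of 28 interferon-stimulated genes, 11 were lower and 1 higher, with a median of -0.53 (6 lower and none higher without the term, 14 and 1 without experiment 2, 9 and none without experiment 1 or 3). *IFI44L* held 15.4, 24.9 and 12.5 CPM in the controls and 1.97, 4.23 and 2.20 CPM after PM2.5 (log2 fold-change -2.67, SE 0.14, adjusted p = 2.17e-07 by the edgeR test), *IFIT1* 18.4, 26.5 and 21.1 CPM in the controls and 4.73, 11.7 and 4.31 CPM after PM2.5 (log2 fold-change -1.71, SE 0.24, adjusted p = 0.000229) and *IFI44* 24.1, 18.1 and 24.4 CPM in the controls and 6.77, 6.87 and 7.18 CPM after PM2.5 (log2 fold-change -1.66, SE 0.11, adjusted p = 1.05e-06). No treated library reached a control in these genes. *OASL* fell by 2.07 and *RSAD2*‡, which encodes viperin, by 2.20. The transcription factors upstream had small values: *STAT2* -0.23, *IRF1*‡ -0.014 and *IRF7* 0.23, and *MX1* had 0.21.

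AP-1 and other immediate early genes were higher 24 h after dosing, in 16 of 25 genes and with none lower, with a median of 0.91 (11 without the term). *EGR1* (ENSG00000120738.7, chromosome 5 from 138465490 to 138469315, plus strand), a zinc finger factor, held 27.9, 17.6 and 25.4 CPM in the controls and 1072, 230.1 and 1112 CPM after PM2.5 (log2 fold-change 4.92, SE 0.36, adjusted p = 1.67e-06 by the edgeR test). *FOSL1*, which encodes FRA-1, held 34.8, 8.76 and 37.4 CPM in the controls and 133, 84.3 and 135 CPM after PM2.5 (log2 fold-change 2.27, SE 0.21, adjusted p = 1.09e-05), and *IER3* 2.77, 0.188 and 2.55 CPM in the controls and 13.3, 5.65 and 14.9 CPM after PM2.5 (log2 fold-change 2.74, SE 0.35, adjusted p = 9.84e-05). In *FOSL1* and *IER3* the control of experiment 2 was the lowest of the 3 controls. *FOS* rose by 1.33, *JUNB*‡ by 1.07 and *KLF4* by 1.19. *FOSL2*, *JUND* and *MYC* did not pass, at -0.37, 0.057 and 0.37. The MAPK feedback list holds genes that limit the MAP kinases and genes that ERK induces. It had 8 of 20 members higher and 1 lower with the term, 2 and 1 without it, and 7 and 4 without experiment 2. *DUSP2*, a phosphatase of ERK, held 0.482, 0.0942 and 0.496 CPM in the controls and 28.4, 2.64 and 31.6 CPM after PM2.5 (log2 fold-change 5.82, SE 0.31, adjusted p = 2.17e-07). *SPRY4*†, a Sprouty inhibitor, held 18.1, 1.65 and 17.5 CPM in the controls and 67.7, 23.3 and 65.7 CPM after PM2.5 (log2 fold-change 2.31, SE 0.25, adjusted p = 2.69e-05), *DUSP6*† 23.0, 2.07 and 27.5 CPM in the controls and 60.7, 30.0 and 61.1 CPM after PM2.5 (log2 fold-change 1.84, SE 0.34, adjusted p = 0.0016) and *ETV5*†‡, a factor that ERK induces, 40.7, 3.48 and 39.7 CPM in the controls and 77.4, 63.5 and 79.7 CPM after PM2.5 (log2 fold-change 1.83, SE 0.42, adjusted p = 0.00608). In all 3 genes the control of experiment 2 was many-fold below the other controls. *DUSP1*, another phosphatase, went the other way and held 183, 124 and 192 CPM in the controls and 85.5, 61.2 and 91.5 CPM after PM2.5 (log2 fold-change -1.06, SE 0.15, adjusted p = 0.00026).

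Of 27 growth factor ligands and receptors, 11 were higher and 10 lower, with a median of 0.26. Among ligands of the EGF receptor, *EREG* held 37.5, 11.3 and 37.0 CPM in the controls and 156, 57.8 and 162 CPM after PM2.5 (log2 fold-change 2.16, SE 0.13, adjusted p = 4.73e-07 by the edgeR test), *HBEGF* 6.20, 4.80 and 7.48 CPM in the controls and 25.6, 9.95 and 24.7 CPM after PM2.5 (log2 fold-change 1.66, SE 0.22, adjusted p = 0.000124), and *TGFA*† rose by 1.08. *EGFR*‡ itself had a log2 fold-change of 0.14, whereas the partner receptor *ERBB3* fell by 0.94. *VEGFA*, the vascular growth factor, held 56.2, 52.9 and 54.6 CPM in the controls and 192, 104 and 196 CPM after PM2.5 (log2 fold-change 1.54, SE 0.15, adjusted p = 1.26e-05), and its receptor *KDR* fell by 1.64. Platelet-derived factors moved apart: *PDGFA* rose by 1.38, while *PDGFC*, *PDGFD* and the receptor *PDGFRB* fell by 1.07, 1.82 and 1.52. *ANGPT1*, a ligand of the endothelial receptor TIE2, held 8.43, 16.4 and 8.33 CPM in the controls and 0.657, 1.32 and 0.239 CPM after PM2.5 (log2 fold-change -3.85, SE 0.25, adjusted p = 8.36e-07), and *FGFR2*, a receptor for fibroblast growth factors, 23.8, 65.0 and 22.6 CPM in the controls and 7.26, 10.7 and 6.99 CPM after PM2.5 (log2 fold-change -2.03, SE 0.16, adjusted p = 3.5e-06).

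The fibrinogen, coagulation and plasminogen list had 5 of 18 genes higher and 9 lower (3 and 7 without the term). All 3 fibrinogen chains fell. *FGB* held 4.28, 4.33 and 5.28 CPM in the controls and 0, 0.277 and 0 CPM after PM2.5 (log2 fold-change -5.52, SE 0.55, adjusted p = 1.72e-05 by the edgeR test) and *FGA* 0.301, 1.04 and 0.213 CPM in the controls and 0, 0.104 and 0 CPM after PM2.5 (log2 fold-change -3.61, SE 0.82, adjusted p = 0.00754), and at these counts the treated values lie at or near the floor. *F3*†, tissue factor, rose by 1.07, and the activators *PLAU*‡ and *PLAT* fell by 0.80 and 0.61. The call of *PLAT* was lost in 2 of 9 leave-outs, at a log2 fold-change of -0.60 to -0.57. Of 10 complement genes, 4 were lower and 1 higher with the term, 1 lower without it, and 3 lower and none higher without experiment 1, 4 and 2 without experiment 2 and 4 and none without experiment 3. *C3*† held 392, 575 and 379 CPM in the controls and 191, 431 and 194 CPM after PM2.5 (log2 fold-change -0.80, SE 0.12, adjusted p = 0.000425), lower in each experiment although the groups overlapped.

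Of 33 collagens, fibulins and related genes, 18 were lower and 2 higher, with a median of -0.73 (14 and 1 without the term). *EFEMP1*, fibulin-3, held 1267, 862 and 1357 CPM in the controls and 232, 269 and 251 CPM after PM2.5 (log2 fold-change -2.19, SE 0.14, adjusted p = 5.73e-07 by the edgeR test), and *LOX*‡, which cross-links collagen, 98.5, 72.4 and 102 CPM in the controls and 22.9, 29.2 and 25.5 CPM after PM2.5 (log2 fold-change -1.80, SE 0.13, adjusted p = 1.42e-06). *COL8A1* held 1133, 298 and 1057 CPM in the controls and 286, 211 and 285 CPM after PM2.5 (log2 fold-change -1.46, SE 0.22, adjusted p = 0.000313), with the lowest control in experiment 2. Among minor chains of collagen IV, *COL4A4* fell by 1.46, *COL4A5* fell by 0.94 and *COL4A3*‡ fell by 0.92, while the major chains *COL4A1* and *COL4A2* had log2 fold-changes of -0.079 and -0.19. *COL1A1*, *COL3A1* and *FN1* had -0.40, 0.48 and 0.12, none past the test. *SPARC*, a collagen-binding matrix protein, fell by 1.22.

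Basement membrane subunits moved in both directions, with 6 of 21 laminins and integrins higher and 5 lower (3 and 4 without the term). *LAMB3*, a chain of laminin-332, held 57.9, 23.5 and 64.8 CPM in the controls and 241, 71.4 and 244 CPM after PM2.5 (log2 fold-change 1.87, SE 0.16, adjusted p = 5.53e-06 by the edgeR test), and its partner chain *LAMA3*† rose by 0.74. *LAMA5*‡, of laminin-511, held 645, 388 and 470.2 CPM in the controls and 173, 248 and 139 CPM after PM2.5 (log2 fold-change -1.39, SE 0.23, adjusted p = 0.000617). *ITGA11*, a collagen receptor, rose by 1.93 and *ITGB8*‡, which activates latent TGF-beta, fell by 1.49. Metalloproteinase genes and their inhibitors had 2 of 15 higher and 3 lower, or 33.3% called. Their median control level was 2.62 CPM, and 26.4% of all tested genes at 1 to 10 CPM were called. *TIMP1* held 153, 175 and 196 CPM in the controls and 329, 698 and 369.6 CPM after PM2.5 (log2 fold-change 1.32, SE 0.16, adjusted p = 7.94e-05), *TIMP2*‡ fell by 1.39 and *MMP1*, interstitial collagenase, rose by 1.86.

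Keratins and junction genes had 11 of 34 members lower and 1 higher, with a median of -0.45, and 11 were lower and none higher without the term (13 and 2 without experiment 2, 9 and none without experiment 1). *KRT5* (ENSG00000186081.11, chromosome 12 from 52514575 to 52520687, minus strand), the basal cell keratin, held 714, 755 and 774 CPM in the controls and 110.4, 173 and 123 CPM after PM2.5 (log2 fold-change -2.49, SE 0.12, adjusted p = 7.38e-08 by the edgeR test), and *KRT19* held 219.7, 444 and 257 CPM in the controls and 71.8, 181 and 77.2 CPM after PM2.5 (log2 fold-change -1.54, SE 0.13, adjusted p = 4.84e-06). *GJA1*, connexin 43 of gap junctions, held 122, 153 and 122 CPM in the controls and 34.6, 47.3 and 35.5 CPM after PM2.5 (log2 fold-change -1.76, SE 0.096, adjusted p = 2.24e-07), and *PKP2*, a desmosome protein, fell by 1.33. *EPCAM* and *TJP1* had log2 fold-changes of -0.16 and 0.23. The bronchial epithelial markers, which overlap this list, had 8 of 16 lower and 1 higher and a median of -0.65, and their summed level went from 4680 to 5220 CPM in the controls to 2710 to 3440 CPM after PM2.5. Fibroblast markers summed to 165 to 226 CPM in the controls and 96.7 to 178 CPM after PM2.5, with none of 10 higher and 2 lower (3 without experiment 2). Immune markers summed to 12.3 to 14.1 and 6.13 to 19.3 CPM, and 6 of 15 (*PTPRC*, *CD3E*, *LYZ*, *FCGR3A* and *TYROBP* among them) had no read in any library. Of the 5 immune markers tested, *ITGAX*† and *ITGAM*† were called higher at levels of at most 1.12 and 2.43 CPM, and neither was called without the term. The calls were lost in 6 of 9 leave-outs, at a log2 fold-change of 1.73 to 2.13 for *ITGAX* and in 6 of 9 leave-outs, at a log2 fold-change of 0.82 to 1.14 for *ITGAM*. Their part in the cytokine results was not tested. Endothelial markers summed to 6.95 to 10.2 and 8.28 to 15.3 CPM, and secretory and ciliated markers, of which the 3 secretoglobins had no read, to 704 to 954 and 580 to 941 CPM. Nearly all of the latter was *TUBB4B*, with 808, 703 and 953 CPM in the controls and 579, 940 and 618 CPM after PM2.5. Every other member of that list held at most 1.6 CPM in each library. Of genes of the mesenchymal state, 2 of 16 were higher and 3 lower (1 and 2 without the term, 2 and 5 without experiment 2): *ACTA2*‡, smooth muscle actin, rose by 1.24 and *THY1* fell by 0.84, while *VIM*‡, *SNAI2* and *CDH2* had log2 fold-changes of -0.57, 0.25 and 0.26.

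Lists of developmental signalling had calls in both directions. Of 23 TGF-beta, BMP and ID genes, 3 were higher and 8 lower (1 and 8 without experiment 3). *ID3*, a target of BMP, held 10.3, 12.2 and 12.4 CPM in the controls and 2.40, 3.40 and 3.54 CPM after PM2.5 (log2 fold-change -1.94, SE 0.22, adjusted p = 4.5e-05 by the edgeR test), and *TGFBR3*, betaglycan, fell by 1.55. *INHBA*†, the activin A subunit, rose by 2.24. Of 22 WNT genes, 3 were higher and 3 lower (6 and 3 without experiment 2), or 27.3% called. Their median control level was 2.98 CPM, and 26.4% of all tested genes at 1 to 10 CPM were called. *DKK1*, a secreted WNT antagonist, held 90.2, 33.5 and 97.0 CPM in the controls and 24.4, 21.2 and 26.1 CPM after PM2.5 (log2 fold-change -1.47, SE 0.20, adjusted p = 0.00015). YAP targets had 3 of 14 higher and 4 lower with the term and none and 3 without it. *ANKRD1* held 21.1, 5.60 and 22.5 CPM in the controls and 4.96, 1.77 and 4.74 CPM after PM2.5 (log2 fold-change -2.04, SE 0.25, adjusted p = 9.32e-05), but *CCN1*† rose by 0.90 and *CCN2* had a log2 fold-change of -0.79 (adjusted p = 0.185), so the list did not move one way.

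In metabolism, cholesterol and fatty acid synthesis had 6 of 27 genes lower and none higher, with a median of -0.38, and 10 lower without experiment 2 (12 without its treated library alone). With all libraries 22.2% of this list were called, against 15.2% of all tested genes. *LSS*‡, lanosterol synthase, held 93.5, 62.1 and 80.5 CPM in the controls and 30.2, 33.7 and 25.6 CPM after PM2.5 (log2 fold-change -1.35, SE 0.20, adjusted p = 0.000371 by the edgeR test), and *FADS2*‡, a fatty acid desaturase, fell by 1.14. *FASN*, fatty acid synthase, did not pass, at -0.13. Glycolysis and hypoxia genes had 3 of 30 higher and 6 lower, with 4 and 10 without experiment 2 and 3 and 4 without experiment 3. *LDHA*, lactate dehydrogenase, held 1229, 897 and 1415 CPM in the controls and 402, 667 and 429 CPM after PM2.5 (log2 fold-change -1.24, SE 0.20, adjusted p = 0.000533). *CA9*, a carbonic anhydrase that hypoxia induces, held 4.73, 8.01 and 5.03 CPM in the controls and 0.263, 0.382 and 0.383 CPM after PM2.5 (log2 fold-change -4.17, SE 0.41, adjusted p = 1.46e-05). Among other hypoxia genes, *NDRG1* held 41.1, 55.8 and 45.5 CPM in the controls and 342, 98.8 and 360.5 CPM after PM2.5 (log2 fold-change 2.37, SE 0.34, adjusted p = 0.000225), and *ADM* and *SLC2A1*‡ had log2 fold-changes of 0.49 and 0.17. *PKM*, pyruvate kinase, fell by 0.65, a call lost in 4 of 9 leave-outs, at a log2 fold-change of -0.59 to -0.54.

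Lysosome and autophagy genes had 7 of 29 members higher and 1 lower, with a median of 0.024, near that of all genes (6 and none without the term, 8 and 2 without experiment 2, 6 and none without experiment 3). *MAP1LC3B*‡, which coats autophagosomes, held 34.0, 41.1 and 38.1 CPM in the controls and 112, 66.0 and 122 CPM after PM2.5 (log2 fold-change 1.40, SE 0.18, adjusted p = 0.00013 by the edgeR test), and *CTSL*, cathepsin L, held 104, 114 and 125 CPM in the controls and 291, 287 and 297 CPM after PM2.5 (log2 fold-change 1.35, SE 0.084, adjusted p = 5.63e-07). *LAMP1*, *CTSD*‡ and *TFEB*, which regulates the family, had log2 fold-changes of -0.15, -0.038 and 0.093. Of the 20 genes on the TXNIP, ARRDC and circadian list, 2 were higher and 2 lower (2 and none without the term, 1 and 1 without the treated library of experiment 3). *BHLHE40*, a clock repressor, rose by 1.21, while *TXNIP*, *PER1* and *BMAL1* had -0.55, -0.24 and 0.37. DNA methylation writers and erasers had 1 of 12 higher and 2 lower (1 and none without the term or without the treated library of experiment 2), with log2 fold-changes of *DNMT1*‡ at -0.038, *DNMT3A* at 0.39 and *TET2* at -0.36. The shares called on the circadian and the methylation list were 20% and 25%, against 15.2% of all tested genes. Neither proteasome nor ribosomal protein genes passed: 0 of 32 and 0 of 30 by the edgeR test, with medians of 0.077 and 0.0072. Without the term the counts were also 0 and 0, DESeq2 called 0 and 0 as well, 1 proteasome gene was lower without experiment 2, and the numbers of members with an unadjusted p under 0.05 with the term were 6 and 0.

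2 mitochondrial transcripts stood among the largest differences in CPM, though neither passed without the term. *MT-CYB*†, cytochrome b, held 1798, 3231 and 2099 CPM in the controls and 849.6, 2549 and 1139 CPM after PM2.5 (log2 fold-change -0.76, SE 0.14, adjusted p = 0.00157 by the edgeR test), with overlapping groups. *MT-RNR2*†, the large ribosomal RNA, rose by 0.69, a call lost in 4 of 9 leave-outs, at a log2 fold-change of 0.56 to 0.58. The other 12 mitochondrially encoded chain genes did not pass, although without the treated library of experiment 2 the list had 4 lower in place of 1. Other genes named for their CPM difference included *FTL*, *MT2A*, *TXNRD1*, *FTH1*, *MT1E*, *EGR1*, *TRIB3* and *SLC7A5* among rises, and *PEG10*, *EFEMP1*, *LDHA*, *PKM*, *KRT5*, *COL8A1*, *HSP90B1*‡, *ANXA2* and *HNRNPA2B1*‡ among falls. The last 3 fell by 0.66, 0.75 and 0.61. Their calls were lost in 3 of 9 leave-outs, at a log2 fold-change of -0.64 to -0.57, in 1 of 9 leave-outs, at a log2 fold-change of -0.60 to -0.60 and in 5 of 9 leave-outs, at a log2 fold-change of -0.60 to -0.53, respectively.

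By transcript class, 2185 of the called genes were protein-coding (1005 higher and 1180 lower of 13795, or 15.8%) and 345 were long noncoding RNAs (185 higher and 160 lower of 2430, or 14.2%). Transcribed unprocessed pseudogenes leaned upward, with 33 higher and 8 lower of 242. *PLCE1-AS1*, a noncoding RNA that overlaps another gene on the other strand, held 4.73, 3.91 and 4.04 CPM in the controls and 0.329, 0.312 and 0.192 CPM after PM2.5 (log2 fold-change -3.88, SE 0.31, adjusted p = 3.63e-06 by the edgeR test), and without strand its reads cannot be told apart from those of its partner.

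Called genes had smaller median changes in experiment 2 than in experiments 1 and 3. The median log2 ratio of genes called higher was 1.10, 0.80 and 1.19 in experiments 1, 2 and 3, and that of genes called lower -1.06, -0.89 and -1.06. In 2554 of the 2681 called genes all 3 experiments changed the same way, and of the other 127 genes, experiment 2 was the one in the other direction for 118. The ATF4 and CHOP list had medians of 2.05, 0.45 and 1.94 in experiments 1, 2 and 3. The MAPK feedback list went the other way, with medians of 0.20, 1.39 and 0.33. Ribosomal protein genes were higher in 30 of 30 cases in experiment 2 (median 0.53) and in 3 and 0 of 30 in experiments 1 and 3 (-0.15 and -0.32). Proteasome genes were higher in 31 of 32 cases in experiment 2 and in 12 and 4 of 32 in the others. With 1 treated and 1 control library per experiment, no difference between experiments was tested.

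**Figure D4:**
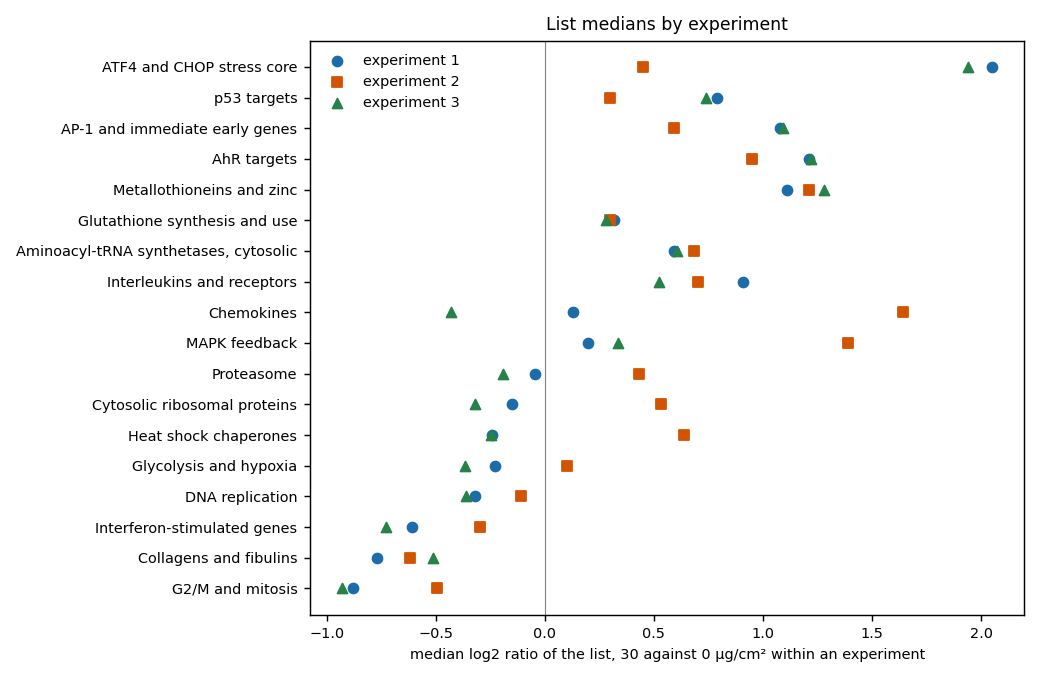
Median log2 ratio of 30 against 0 µg/cm2 within each experiment for 18 lists, with experiments 1 to 3 as circles, squares and triangles. Experiment 2 stands below both others for ATF4 and CHOP genes (0.45 against 2.05 and 1.94) and above both for MAPK feedback, chemokine, ribosomal and proteasome genes, while experiments 1 and 3 differ in sign for chemokines (0.13 and -0.43).

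The low dose, 1 µg/cm2 for 24 h in the same 3 experiments, was compared with the control and with the higher dose. Against control it had 74 called genes (0.42%), 53 of them among the 2681. High and low dose differed in 2737 genes (15.6%). Of the 2681 genes called against control, 1941 also differed from the low dose in the same direction, 738 did not pass against it, and 2 differed in the opposite direction. Not passing between the doses does not show that the low dose made the same change. Those 2 were *CYP1A1* and *AHRR*. *CYP1A1* held 152, 88.9 and 152 CPM at 1 µg/cm2, above its treated values at 30 µg/cm2 in every experiment (log2 fold-change -2.63, SE 0.44, adjusted p = 0.000671 for high against low dose by the edgeR test). *AHRR* held 21.5, 20.1 and 16.8 CPM at the low dose (log2 fold-change -0.90, SE 0.16, adjusted p = 0.00105). *CYP1B1*, *TIPARP* and *SLC7A5* did not pass between the doses, with log2 fold-changes of -0.12, 0.14 and -0.21, and neither did *ANKRD1* (-0.27), *COL8A1* (-0.31) or *ITGA11* (0.049). By contrast, *HMOX1*, *EGR1*, *LIF* and *KRT5* differed between the doses by 2.78, 4.84, 3.27 and -2.09. *SPRY4* and *DUSP6* differed more from the low dose (3.38 and 3.51) than from control (2.31 and 1.84), a difference that was not tested itself. Both comparisons share the treated libraries.

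**Figure D5:**
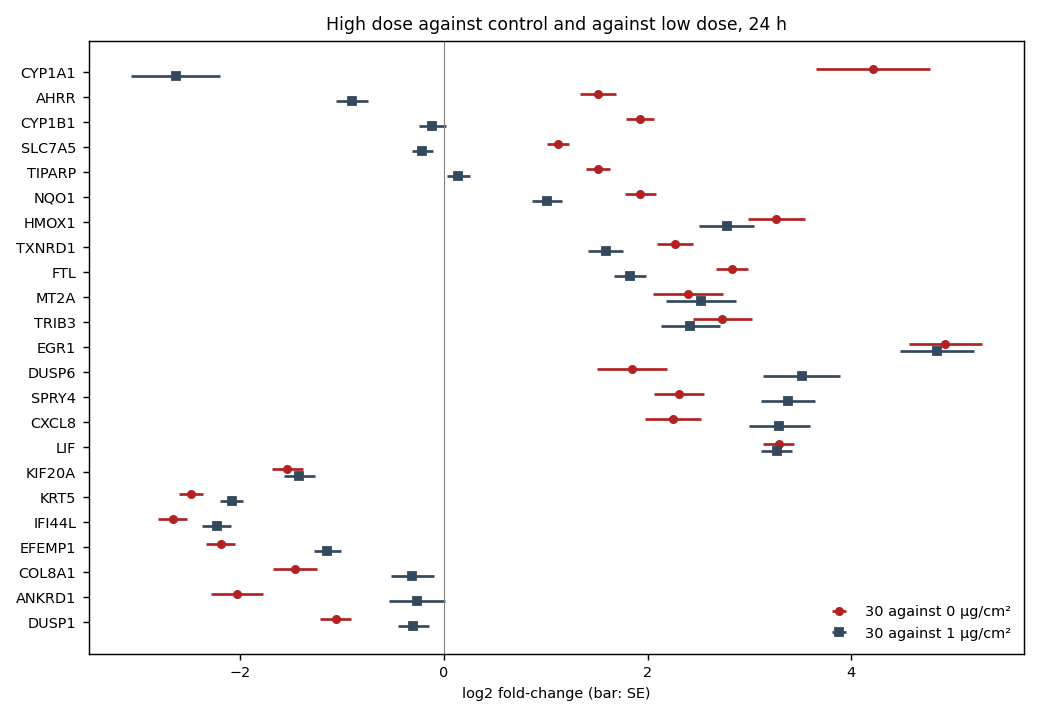
Log2 fold-change with SE of 23 genes for 30 against 0 µg/cm2 (red circles) and 30 against 1 µg/cm2 (dark squares) at 24 h. CYP1A1 and AHRR lie above 0 against control and below 0 against the low dose (CYP1A1 at 4.21 and -2.63).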

How the data were processed

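Per the labels and the study's methods, the authors aligned single-end reads with STAR (version 2.5.3) and made the deposited counts per gene with featureCounts. The annotation and strand setting are not given in the sources used here. The labels name hg19 and the methods GRCh38. Of 57392 genes matched to GENCODE v44, 57370 overlapped their GRCh38 position, so coordinates are read as GRCh38. Columns were matched to samples by the sample name in the labels, and the title gave the condition and experiment number.

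Raw counts of all 15 libraries were fitted with edgeR 4.0.16 (R 4.3.3, limma 3.58.1): TMM scaling, filterByExpr by condition, earlier quasi-likelihood mode (legacy = TRUE), Benjamini-Hochberg adjustment over 17599 genes. The model held a mean for each of 5 conditions and the experiment number as a replicate block, separately for the 24-h and repeated-dose libraries. The number comes from the titles, and deviations from the group means correlated at 0.271 to 0.628 between treated and control libraries of one number (3 pairs) and at -0.659 to 0.521 otherwise (6 pairs). Deviations cancel within a group, which by itself favours negative values between different numbers. Control 1 with treated library 3 gave 0.521, above the 0.271 of control 3 with treated library 3. These values therefore do not separate experiments 1 and 3. The study's methods name no term for experiment, so the fit without it is given beside the results it changes. Residual degrees of freedom were 6 (median prior 6.53). On simulated counts for this comparison (17224 genes), 97% of 100 genes changed by log2 1 and 100% of 100 changed by log2 2 were called, with 10 unchanged genes called. Without the term these were 56%, 93% and 0. The counts were drawn from the model with the term, and each changed gene had the same fold in all 3 experiments. The simulation therefore favours the fit with the term. It cannot tell which fit is right for the real counts, where list medians differed between experiments.

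SE is the log2 fold-change divided by the root of F. Medians and counts describe the 47 lists, with no set test. Genes were named if on a list, or among the 10 largest rises or falls in log2 fold-change or CPM, or the 10 smallest p-values in each direction. Some of these genes are not reported here. The comparison and the lists were chosen with earlier results of these data known. Promoters came from RefSeq (GRCh38.p14), matching 12101 of 17591 tested symbols. DESeq2 1.42.0 was an alternative. Tables and plots were made in Python 3.11.15 (pandas 2.3.3, numpy 2.4.6, matplotlib 3.10.9).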

Additional observations from a re-analysis of the deposited data

How the results depend on the processing

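The experiment term (replicate block), the number of libraries in the fit and the fold threshold moved the counts, and scaling, filtering and the choice of tool moved them less. The main fit called 2681 genes (1296 higher, 1385 lower). Without the replicate block 1420 genes (673 and 747) were called, 1411 of them among the 2681. The 6 libraries alone gave 1751 (790 higher) with the block and 360 (175 and 185) without it. Testing against a fold of 1.5 gave 988 (450 and 538). Between the doses, 2737 genes became 1379 without the block and 902 against a fold of 1.5. The other scalings, filters, fits and DESeq2 gave 2390 to 2889. Leaving out 1 library gave 2065 to 3253 called genes (931 to 1654 higher, 1134 to 1644 lower) and 2180 to 3136 between the doses. Leaving out a whole experiment gave 1874 to 3699 (776 to 1834 higher, 1092 to 1865 lower) and 1934 to 3374 between the doses. Without experiments 1, 2 and 3 the higher counts were 782, 1834 and 776. The share of calls that were higher was 48.3%, and 40.5% to 51% over all alternatives. Of 191 named genes that were called, 21 lost the call without the block, 94 in the 6 libraries without it and 28 against a fold of 1.5, and none changed sign under any alternative. Counts moved by over 1.5 times in 15, 42 and 25 of 47 lists under those settings. The causes were not tested. Genes near the floor of 3 counts are limited by depth.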
